A study of Arabidopsis thaliana with 6 samples.

Results

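The regions described here are the reChIP peaks of at least 8 tags from Arabidopsis seedlings kept in air or in ethylene, where reChIP means that chromatin precipitated for ENAP1 was precipitated again for EIN2. The air list held 664 such peaks of 9174, which was 7.24% of the list. The ethylene list held 703 of 9881, which was 7.11%. Together they made 1367 of the 37625 peaks in the 4 peak lists of the study, and they were chosen by pileup alone, the number of overlapping fragments at the summit of a peak.

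The study mapped ENAP1 by ChIP and ENAP1 with EIN2 by reChIP, each in air and in ethylene, with 1 input per treatment and 1 library per group. All groups were whole Col-0 seedlings grown in darkness for 3 days at 24 °C. They then spent 4 h in hydrocarbon-free air or in the same air with 10 ppm ethylene. An antibody against green fluorescent protein was used first and, for the reChIP, an EIN2 antibody second; the labels do not name the tagged construct or the promoter that drives it. The treatment field of the ethylene samples reads air, while their titles and descriptions read ethylene, and these were followed. With 1 library per group no difference between treatments had a replicate check, so no test was made. The intervals below are exact binomial (Clopper-Pearson) 95% intervals and cover counting error only.

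EIN2 is a membrane protein of the endoplasmic reticulum that carries the ethylene signal onwards from the receptors and the kinase CTR1. When ethylene is sensed, its C-terminal part is released and reaches the nucleus, where it acts with the transcription factors EIN3 and EIL1. ENAP1 is a nuclear DNA-binding protein of the trihelix family that associates with EIN2 and has been studied for its link to histone acetylation. A reChIP peak is therefore sought where both proteins sit on the same DNA.

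The 2 lists did not measure the same quantity. The air reChIP was called over the air input, so a peak in it stood above input DNA. The ethylene reChIP was called over the air reChIP library, so a peak in it stood above the local level of the air reChIP that the peak caller computed. After removal of duplicates the air reChIP kept 644263 tags and the ethylene reChIP 304818, a ratio of 2.11. The limit of 8 tags thus meant 12.4 RPM in air and 26.2 RPM in ethylene, where RPM is tags per 1000000 tags kept. RPM takes no account of fragment length, which was taken as 112 bp in air and 146 bp in ethylene. A longer fragment raises the pileup at equal tag numbers. Just outside the limit, at 7 tags, were 545 air and 441 ethylene peaks, and just inside it, at 8 tags, were 245 and 252.

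The air members fell into a small group of tall peaks and a large group of low ones. Their median pileup was 9 tags, the upper quartile 22 and the maximum 183. The median width was 153 bp and the greatest 3128 bp, and 74.7% of members (71.2 to 78.0) had a q-value of 0.05 or lower, against 15.1% of the peaks below the limit. In ethylene the median pileup was again 9 tags but the upper quartile was 11 and the maximum 272. There the median width was 212 bp, the greatest 2069 bp, and 95.4% of members (93.6 to 96.9) had a q-value of 0.05 or lower, against 54.6% below the limit. Only 1 tag was kept per position, so no pileup could exceed 224 tags in air or 292 in ethylene, and the highest ethylene peak, in EIN2, came near that ceiling.

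**Figure D1:**
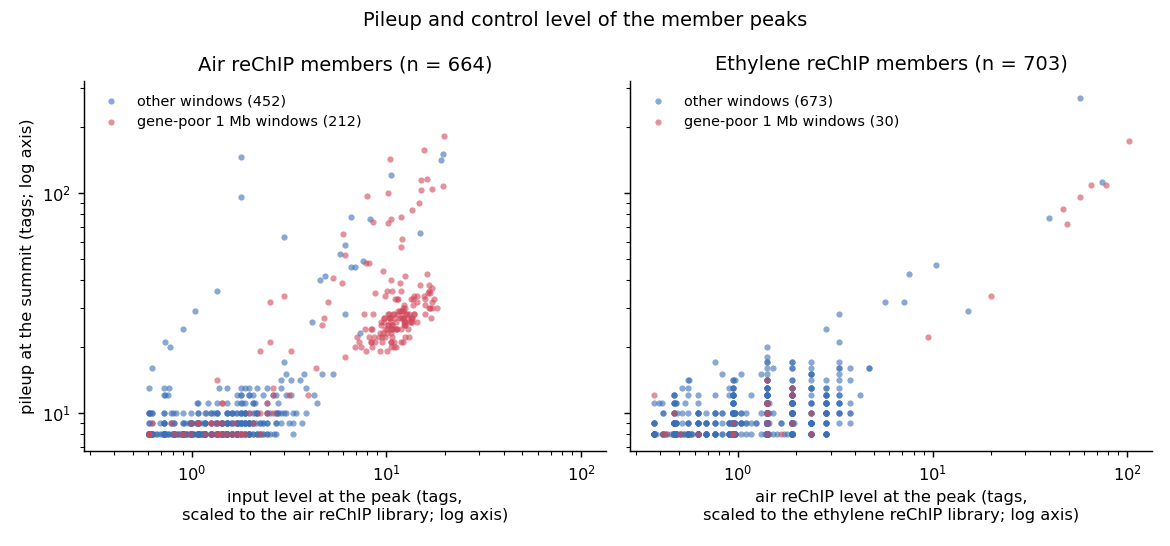
Each point is 1 member peak, with its pileup in tags on the vertical log axis and the control level at the peak on the horizontal log axis; the control was the air input for the air list and the air reChIP library for the ethylene list. Red points lie in 1 Mb windows with few protein-coding genes: 212 of 664 air members, most of them tall and over a high input level, and 30 of 703 ethylene members.

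The tall air peaks lay mainly where genes are few and the input itself was high. Of the 664 air members, 31.9% (28.4 to 35.6) had their summit in 1 of the 20 gene-poor windows, 1 Mb stretches with under 50% of the median of 259 protein-coding genes. In ethylene the share was 4.27% (2.90 to 6.04). Among the peaks below the limit the shares were 9.69% in air and 11.96% in ethylene. A control level of at least 5 times the list median was found at 194 air members, of which 85.1% (79.2 to 89.8) were in gene-poor windows. Their median pileup was 27 tags, while the other 470 air members had a median of 8 tags and 10.0% (7.44 to 13.1) in such windows.

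A single stretch accounted for many of these. Chromosome 2 held 223 air members, 33.6% of the set, though it held 17.1% of all air peaks and 15.7% of protein-coding genes. The window from 3 to 4 Mb of that chromosome alone held 147 air members with pileups of 8 to 157 tags, and 140 of them stood over a high input level. In ethylene 109 members, 15.5%, were on chromosome 2 and 1 of them, of 109 tags at the edge of AT2G07739, lay in that window. As background, Col-0 carries a large copy of mitochondrial DNA near the centromere of chromosome 2, and the part of such repeated DNA in the air peaks was not tested. DNA that is abundant in both reChIP libraries is in the control of the ethylene list, so its scarcity there and the effect of ethylene cannot be told apart.

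**Figure D2:**
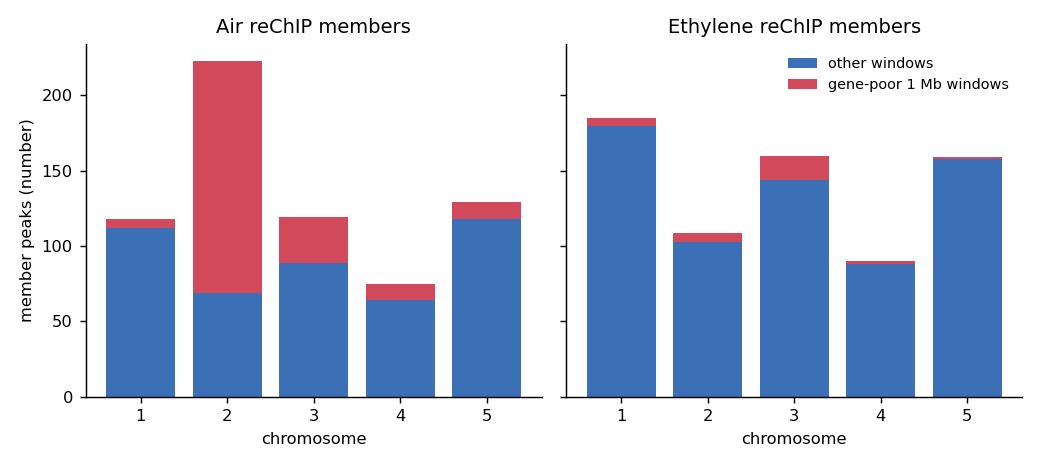
Bars give the number of member peaks on each chromosome, split into gene-poor 1 Mb windows (red) and all others (blue), for air on the left and ethylene on the right. Chromosome 2 has 223 air members, 154 of them in gene-poor windows, against 109 ethylene members with 6 in such windows.

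The tallest air members, with few exceptions, belonged to that high-input group. The tallest, of 183 tags, was in the pseudogene AT2G07080, followed by 157 tags beside AT2G07739 and 151 tags beside AT2G01023. ABI5, the bZIP factor of abscisic acid responses, came next with 146 tags over 1256 bp (2:15206195-15207450). Then followed AT3G06365, annotated as a miscellaneous RNA, with 143 tags, a peak of 142 tags near AT3G20362, AT5G10340 with 121 tags, and a pair of peaks of 116 and 115 tags in the transcribed pseudogene AT3G33004. The 12 tallest ended with AT2G07732 at 108 tags, AT2G07706 at 104 tags and a peak of 103 tags beside AT2G07633. Of these 12, ABI5 alone stood over a low input level, 2.72 times the list median, while the others stood at 15.8 to 29.8 times the median. ABI5 had no ethylene peak at all, which in that list says only that the ethylene reChIP did not exceed the air reChIP there by enough to be called.

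When the limit was raised in air to 16.9 tags, the same 26.2 RPM as in ethylene, 193 air peaks were left. This limit was equal in RPM alone. Against the assumed genome-wide background, 0.601 tags in the air list and 0.371 in the ethylene list, it was stricter in air. Of the 193 peaks, 179 stood over a high input level and 14 did not. Those 14 named few genes: ABI5 (146 tags), EIN2 (96, 36 and 29 tags), AT5G05550 with its neighbour EMB2771 (63 tags), AT2G07565 (34 tags), SRT2 (24 and 21 tags), AT2G31590 (20 tags), AT2G12905 (19 tags) and AT2G16586 (17 tags), with 3 peaks farther than 1000 bp from any protein-coding gene. This list was drawn after its values were seen.

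The ethylene members lay mostly in genes. Of the 703, 88.5% (85.9 to 90.7) had their summit inside a protein-coding gene, against 67.6% (63.9 to 71.2) of air members, and 3.56% lay farther than 1000 bp from any such gene, against 14.3% in air. Below the limit, 70.05% of ethylene and 64.8% of air peaks were inside a gene, and 16.3% and 16.55% were that far. The air members were thus near the rest of their list. Farther than 200 bp inside a gene were 57.0% of ethylene members, against 56.5% below the limit. Within 200 bp of a gene edge, on its inner side, were 31.4% of ethylene members (28.0 to 35.0) and 19.1% of air members (16.2 to 22.3). Below the limit these shares were 13.6% and 11.4%, and 42.8% of all ethylene ENAP1 ChIP peaks lay there. Strand was not used here, so an edge may be either end of a gene. The edges used came from the RefSeq table of assembly TAIR10.1 and the peaks from TAIR10. When the table was moved by 1000 to 10000 bp either way, the share of ENAP1 ChIP peaks at gene edges was at most 10.7%.

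In genes of other classes the members also differed. A summit counted there could be inside a protein-coding gene as well. Pseudogenes held 7.83% of air members (5.90 to 10.1) and 2.56% of ethylene members (1.52 to 4.02). Below the limit the order was the other way, with 4.10% in air and 7.62% in ethylene. Genes of long non-coding RNA held 3.01% (1.85 to 4.61) in air and 4.27% (2.90 to 6.04) in ethylene, intervals that overlap, against 1.75% and 2.21% below the limit. Genes of transfer RNA held 4 air members and 0 of 703 ethylene members, where a count of 0 allows a share of up to 0.427% if 3 counts are taken as the floor and 0.523% by the exact interval. Below the limit the transfer RNA shares were 0.0705% and 0.0872%. The air members in the transfer RNA genes AT2G07748 and AT2G07743 lay in the 3 to 4 Mb window of chromosome 2. The input there was 14.9 and 17.8 times the list median. How much of the air shares by gene class came from that high-input stretch was not tested.

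Most ethylene members lay on ENAP1 ChIP peaks. The ENAP1 list in ethylene, which shares no library with either reChIP list, was used for both. It was overlapped by 532 of 703 ethylene members, 75.7% (72.3 to 78.8), against 12.9% of the ethylene peaks below the limit. Of air members 193, or 29.1% (25.6 to 32.7), overlapped it, against 8.65% below the limit. The summits nearly coincided: the median distance to the nearest overlapping ENAP1 summit was 33 bp in both lists, and 81.6% of the overlapping ethylene members (78.0 to 84.8) and 86.5% of the air ones (80.9 to 91.0) had one within 100 bp.

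In both lists the overlap with ENAP1 rose with pileup up to the tallest peaks. In ethylene it went from 6.79% at 2 to 4 tags to 27.6% at 5 to 7 tags, 57.9% at 8 tags, 82.3% at 9 to 10 tags and 95.2% (90.4 to 98.1) at 11 to 15 tags, and was 71.1% (54.1 to 84.6) in the 38 peaks of 16 tags or more. In air it went from 5.62% at 3 to 4 tags to 11.02% at 5 to 7 tags, 31.4% at 8 tags and 45.5% at 9 to 10 tags, and reached 53.0% (40.3 to 65.4) at 11 to 19 tags. Peaks also widened: the median width was 146 bp at 2 to 4 tags and 231 bp at 11 to 15 tags in ethylene. In air it was 112 bp at 3 to 4 tags and 146 bp at 11 to 19 tags. The part of width in the overlap was not tested. The 186 air peaks of 20 tags or more overlapped ENAP1 in 2.69% (0.879 to 6.16), and 87.1% of them were in gene-poor windows. Among the 470 air members without a high input level the overlap was 39.1% (34.7 to 43.7), and among the 194 with one it was 4.64% (2.14 to 8.62). At the equal limit of 26.2 RPM it was 2.59% (0.846 to 5.94) of 193 air peaks, so the comparison of air with ethylene depends on where the air limit is set.

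**Figure D3:**
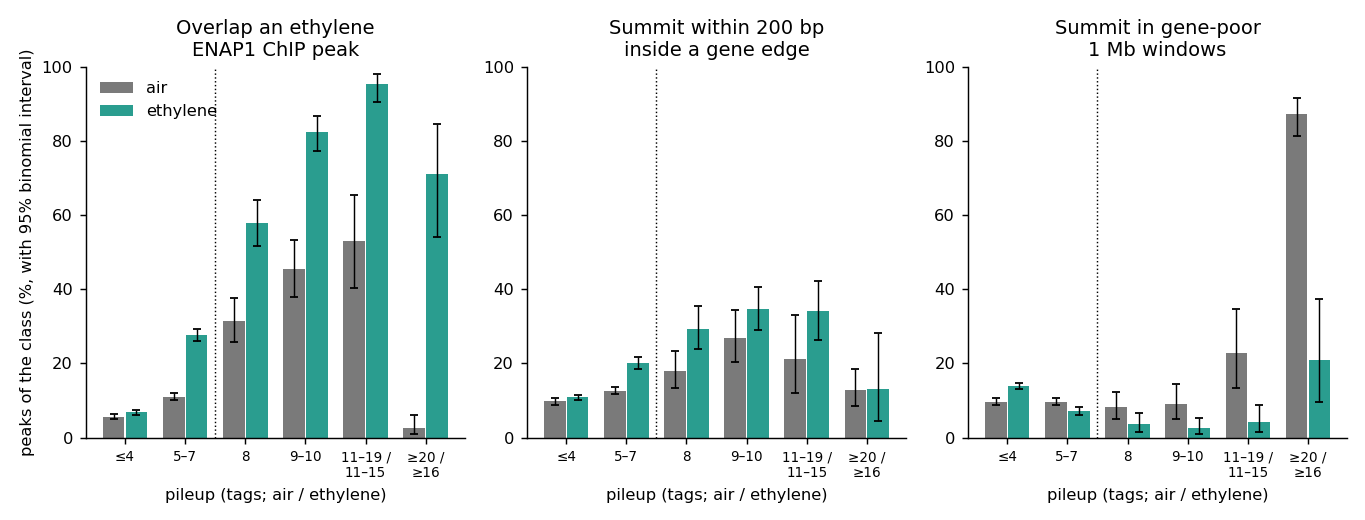
Bars give the share of all peaks of a pileup class, in percent, that overlap an ethylene ENAP1 ChIP peak (left), have their summit within 200 bp inside a gene edge (middle) or lie in gene-poor 1 Mb windows (right), in air (grey) and ethylene (green); error bars are exact binomial 95% intervals and the dotted line is the limit of 8 tags. In ethylene the ENAP1 share climbs to 95.2% at 11 to 15 tags, and in air it drops to 2.69% at 20 tags or more, where 87.1% are in gene-poor windows.

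Most ethylene members had an ENAP1 peak in both treatments. Of the ethylene members, 541 (77.0%) overlapped an air ENAP1 ChIP peak, 510 (72.5%) overlapped an ENAP1 peak of each treatment and 140 (19.9%) overlapped neither. At the 510, the median ENAP1 pileup was 16.7 RPM in air and 17.1 in ethylene, where the medians of the whole ENAP1 lists were 6.55 and 7.04. The authors' ENAP1 fold over input at the same sites had a median of 3.71 in air and 3.73 in ethylene, against 2.69 and 2.86 in the whole ENAP1 lists. In 520 ethylene ENAP1 ChIP peaks overlapped by ethylene members, the median input level was 2.26 times the list median. The part of input in the ENAP1 pileup was not tested. No replicate error was available for these medians.

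The reverse share was small. Of all 8858 ethylene ENAP1 ChIP peaks, 523 (5.90%) held an ethylene member and 191 (2.16%) an air member. Among the 100 with the highest ENAP1 fold, 26 held an ethylene member (17.7 to 35.7) and 12 an air member (6.36 to 20.02). Among the highest 1000 the numbers were 142 and 63. The overlap of ethylene members with ENAP1 varied with position: 87.8% (82.7 to 91.8) of the 221 at gene edges, 83.9% (71.7 to 92.4) of the 56 within 1000 bp outside a gene, 69.8% (65.1 to 74.3) of the 401 deeper inside genes and 44.0% (24.4 to 65.1) of the 25 far from protein-coding genes.

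Since the air reChIP was the control, the ethylene list holds the caller's local level of it at each member. The caller uses a wider stretch or the genome-wide background where these give a higher level. The level is therefore not the air pileup at the summit, and air tags always means this level at ethylene members. It could be lower or higher than the pileup in the air list. At TGA1 it was 4 against 10 tags with summits 1 bp apart, and at AT5G10540 5 against 13 tags with summits 7 bp apart. At EIN2 it was 121 against 96 tags. The level was computed from pileup and fold and is given here in tags of the air library. Its median was 2.77 tags, with quartiles of 1.75 and 4.00, and in 508 of 703 members it was a whole number of tags within 0.02. The median was 4.31 RPM in air against 29.5 RPM in ethylene. In 29 members it was below 1 tag, the lowest being 0.784, the genome-wide background that the caller assumes, and in 18 members it was 10 tags or more. Each member stood above its air level because it was called for that, so the median ratio of 8.45 (quartiles 5.64 and 12.4) describes the choice of peaks and is no measure of the response to ethylene.

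**Figure D4:**
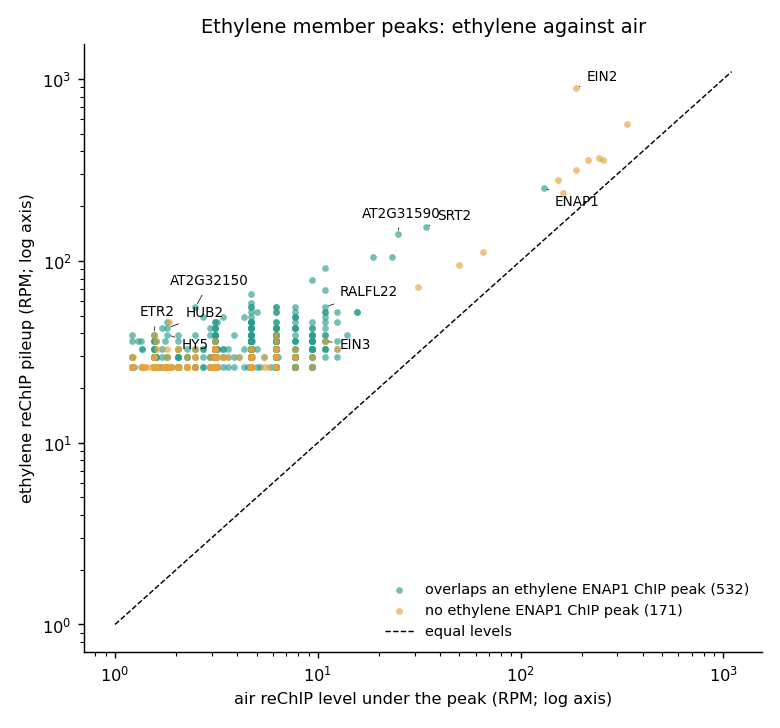
Each point is 1 of the 703 ethylene members, with its ethylene pileup (vertical) against the air reChIP level under it (horizontal), both in RPM on log axes; green points overlap an ethylene ENAP1 ChIP peak, orange ones do not, and the dashed line marks equal levels. The bulk has a few air tags and a pileup just over the limit of 26.2 RPM, while EIN2, ENAP1 and a few peaks without ENAP1 stand to the upper right.

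The members with the highest air level were few. The pseudogene AT2G07080 had 215 air tags under an ethylene pileup of 173. The peak at AT2G07739 had 165 air tags under 109 in ethylene, that near AT3G20362 had 157 under 112, and AT3G06365 had 138 under 109. EIN2 and the pseudogene AT3G33002 each had 121 air tags, under 272 and 96 in ethylene. Apart from EIN2, these had an authors' fold over air of 1.39 to 1.69. At the other end, the tallest 5 members at the background of 0.784 air tags were AT2G13660 with 12 ethylene tags, AT1G11200 with 11, and AT1G53633, AT3G49420 and AT5G41770 with 9 each. Further members at that background, with 8 tags, were in PAD4, a regulator of salicylic acid defence, and CHR34, a chromatin remodeller gene. They were picked after their values were seen.

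The gene of EIN2 itself led the ethylene list by pileup. The EIN2 peak (5:791045-793113) reached 272 tags, or 892 RPM, over 121 air tags, or 188 RPM, an authors' fold of 4.69. A further ethylene member in the gene (5:790278-790423) had 29 tags over 32 air tags, 95.1 against 49.7 RPM. In air EIN2 held 4 members inside the gene, with 36, 10, 29 and 96 tags from low to high coordinate, and another of 13 tags beside it (5:793568-793773). Only that outer peak overlapped an ENAP1 ChIP peak in ethylene, of 5.50-fold. The ethylene member of 272 tags and the air member of 96 tags overlapped an ENAP1 ChIP peak in air, of 1.94-fold. The 4 inner air members covered 4208 bp and the widest was 3128 bp.

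ENAP1 was a target in both lists. It had 77 tags in ethylene (3:3477056-3477352), or 253 RPM, over 84 air tags, or 130 RPM. Its air peak had 78 tags, 10.4 times the input, at a place where the input was 9.92 times the list median. EIN3, the transcription factor downstream of EIN2, had 1 ethylene member of 11 tags over 7 air tags (3:7261679-7262035), with a −log10 q of 1.42. In air it had 4 members of 9, 9, 9 and 11 tags inside the gene, over 924 bp in all. None of the EIN3 members overlapped an ENAP1 ChIP peak in ethylene. Whether the DNA at EIN2, ENAP1 and EIN3 came from chromatin or from other DNA of these genes was not tested.

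Among the receptors, ETR2 was the only one of 5 with a member. Its ethylene peak (3:8254600-8254769) had 12 tags, or 39.4 RPM, over 1 air tag, or 1.55 RPM, which is 8.82-fold by the authors' value. The summit was within 200 bp inside the gene edge and on ENAP1 peaks of 17.4-fold in ethylene and 13.6-fold in air. ETR2 had no air reChIP peak. ETR1, ERS1 and ERS2 had only ethylene peaks below the limit, of at most 6 tags, and ETR1 had an air peak of 4 tags. RTH, a relative of the receptor regulator RTE1, had an air member of 8 tags. EBF1, the F-box protein that targets EIN3 for degradation, had an ethylene peak of 7 tags, just below the limit, and no air peak. ERF1, a direct target of EIN3, had no reChIP peak.

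Response and light genes followed with low peaks. ERF6, an AP2/ERF factor, had 13 ethylene tags, 42.6 RPM, over 1.90 air tags (4:9752936-9753235; 7.38-fold). RAP2.3, a group VII ERF of hypoxia responses, had 9 tags over 4 air tags. HY5, the bZIP factor that promotes development in light, had 12 tags over 1.17 air tags (5:3594242-3594458; 8.37-fold), and its only air peak had 4 tags and lay elsewhere in the gene. PIF5, a phytochrome-interacting bHLH factor, had 9 tags over 1.31 air tags. BBX22, a B-box factor, was reached by a peak of 8 tags that lay 911 bp away in a neighbouring gene. FAR1, a transcription factor of phytochrome A signalling, was the only light gene with an air member, of 8 tags.

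Chromatin genes were represented by SRT2, HD2D, HAF1 and HUB2. SRT2, a sirtuin-type deacetylase gene, had 3 ethylene members inside the gene with 47, 32 and 28 tags over 22, 15 and 7 air tags, and 3 air members at nearly the same places with 24, 21 and 12 tags. All 6 overlapped ENAP1 peaks of ethylene, of 3.19- to 3.45-fold. HUB2, a ligase for monoubiquitination of histone H2B, had 13 ethylene tags, 42.6 RPM, over 1.17 air tags (1:20607019-20607198; 9.02-fold), at a gene edge and on ENAP1 peaks of 10.3-fold in ethylene and 11.1-fold in air; it had no air reChIP peak. HD2D, a plant-specific histone deacetylase gene, had a peak of 12 tags 883 bp away. HAF1, a TAF1-type acetyltransferase gene, had one of 11 tags 331 bp away. Both of these summits were inside a neighbouring gene.

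**Figure D5:**
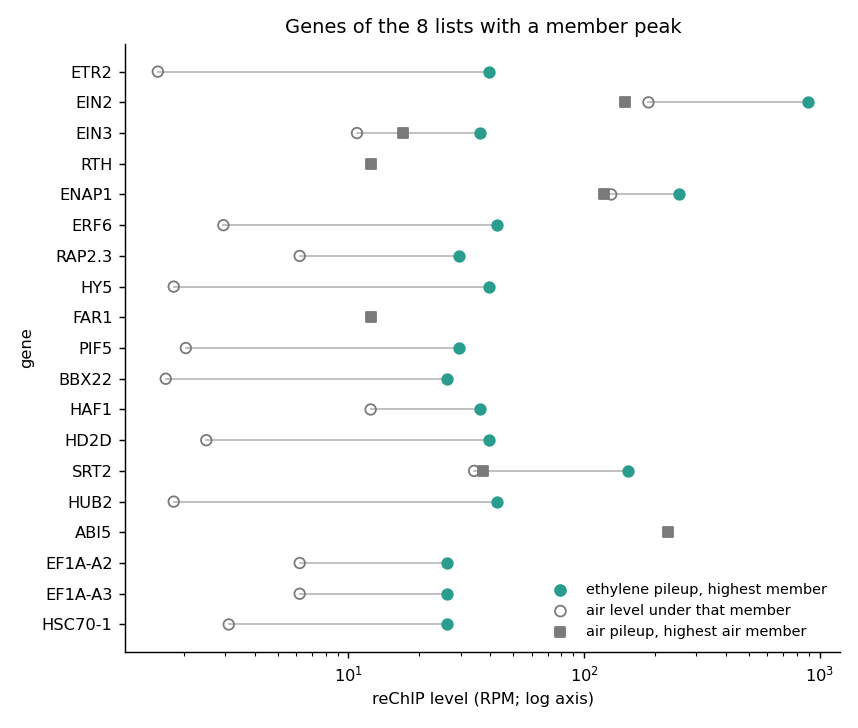
For each gene of the 8 lists with a member peak, the horizontal log axis gives reChIP RPM: the highest ethylene member (green), the air level under it (open circle) and the highest air member of the gene (grey square). EIN2, ENAP1 and SRT2 have high values in both libraries, ETR2, HY5 and HUB2 have under 2 air RPM, and ABI5, RTH and FAR1 have an air member only.

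By list, counts were small and housekeeping genes were hit as well. A gene was counted as a target when a member summit lay inside it or within 1000 bp. Over all 27444 protein-coding genes, 994 (3.62%) were targets in ethylene and 681 (2.48%) in air. Of the 118 genes of the 8 lists, 16 (13.6%) were targets in ethylene and 7 (5.93%) in air. In ethylene these were 1 of 5 receptors, 3 of 16 signalling genes, 2 of 20 response genes, 3 of 17 light genes, 3 of 21 histone acetylation genes, 1 of 6 H2B ubiquitination genes and none of 15 abscisic acid genes. The 18 abundant housekeeping genes had 3 targets, or 16.7%: the elongation factor genes EF1A-A2 and EF1A-A3, which share 1 peak of 8 tags between them, and the chaperone gene HSC70-1 with 8 tags. In air, 4 signalling genes (EIN2, EIN3, RTH, ENAP1), FAR1, SRT2 and ABI5 were targets and no housekeeping gene was. These shares are descriptions of small lists.

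The count of regions that were members of both sets depends on the limit. Of the ethylene members, 50 of 703 (7.11%) overlapped an air member, and of the air members 47 of 664 (7.08%) overlapped an ethylene member. With the same limit of 26.2 RPM in both lists 2.13% of ethylene members overlapped an air peak, and with 12 tags in both lists 21.0% did. When air peaks of any pileup counted, 88 ethylene members (12.5%) overlapped one. This left 615 ethylene and 616 air members with no peak of the other list. Targets in common numbered 81, which was 0.295% of all protein-coding genes, 8.15% of the ethylene targets and 11.9% of the air targets, and at 53 of them the peaks themselves overlapped.

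The 50 pairs can be ordered by their ethylene pileup. After EIN2, AT2G07080 (173 tags in ethylene, 183 in air), AT3G20362 (112 and 142), AT3G06365 (109 and 143), AT2G07739 (109 and 157), AT3G33002 (96 and 116), AT3G41762 (85 and 97), ENAP1 (77 and 78) and AT3G33004 (72 and 84) came the peaks of SRT2 and AT2G31590 (43 and 20). The pseudogenes AT3G33000 (34 and 116) and AT4G21437 (32 and 12) followed. In 13 pairs the air peak stood over a high input level, and none of the pairs from AT2G07080 to AT3G41762 lay on an ENAP1 peak of ethylene.

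The lower pairs, of 8 to 22 ethylene tags, lay largely on ENAP1 sites. RALFL22, a gene of a RALF-like signalling peptide, had 17 ethylene and 12 air tags on a 15.5-fold ENAP1 peak, and AT1G78560 had 17 and 8 on an 11.3-fold one. TGA1, a bZIP factor of defence responses, had 16 and 10 tags, GulLO1 16 and 13, AT5G44060 16 and 12, and AT1G66890 16 and 13. Others were AT5G23280, AT5G10540, AT2G43370, AT3G56200, AT2G15980, AT4G17620, AT4G24310, AT2G23370, AT2G44660, AT1G10330, AT3G16510, AT1G20030, AT5G04310, AT4G34180, AT3G50430, AT2G44600 and AT5G51770. Named genes among them were PUB19, a U-box ubiquitin ligase, EXO70D3, an exocyst subunit, PRA1.G2, PRA1.F4, XSP1 and FACE2, together with EIN3, the non-coding RNA gene AT1G08673 and 3 peaks without a gene. All of these but EIN3 and a 22-tag peak on chromosome 3 overlapped an ENAP1 peak of ethylene, and 35 of the 50 pairs had summits at most 100 bp apart.

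What the shared control allows can be stated from the numbers in the lists. Every deposited −log10 p of both lists was rebuilt within 0.01 from pileup and control level with a Poisson count, so the limit of a call could be computed for any air level. At 8 air tags the ethylene library needed 9 tags, which is 2.38 times the air level in RPM. At 20 air tags it needed 17 tags, 1.80 times, at 100 it needed 64, 1.35 times, and at 183 it needed 109, 1.26 times. Over the 664 air members the needed ratio had a median of 2.35 when their own pileup was put in as the air level. The call itself used the local control level, which could be lower than that pileup. FACE2, with an air pileup of 10 tags and a control level of 5 air tags, was called at 8 ethylene tags. The needed ratio is therefore no firm limit for air members. A region where the ethylene RPM only equalled the control level in RPM could not enter the ethylene list.

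Read this way, an ethylene member is a place where the ethylene reChIP RPM exceeded the caller's local level of the air library. That level could be lower than the air pileup, as at TGA1 with 6.21 against 15.5 RPM. A call therefore does not by itself give the size of a difference between the libraries. That 0 of 9881 ethylene peaks were below the computed limit follows from the call itself and adds nothing to this reading. An air member without an ethylene peak may have had equal, lower or moderately higher signal in ethylene, and these cannot be told apart. The 616 air members without an ethylene peak are therefore no count of lost sites, and the 615 ethylene members without an air peak are no count of sites free of EIN2 in air. The ethylene list also has no input of its own, so a region of uneven recovery in 1 of the 2 reChIP libraries and a region that gained EIN2 cannot be told apart.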

How the data were processed

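Chromatin of whole seedlings was sequenced in 6 libraries, of which the 4 precipitated ones had peak lists. The submitters' processing notes name BWA and TAIR10. Per the file headers, the authors called peaks with MACS2 2.1.0.20150603 at a p cutoff of 0.01, each library over 1 control, keeping 1 tag per position; 84% (air) and 83% (ethylene) of reChIP tags were duplicates, fragments were taken as 112 and 146 bp, and the larger library was scaled to the smaller. The same air library shows different tag numbers in the 2 lists, for example 96 and 121 at EIN2 and 14 and 4 at PUB19. Fragment length and the place of the summit differ between the lists, and the second number is a local control level. At TGA1 the numbers were 10 and 4 with summits 1 bp apart. The source of these differences was not tested. The deposited columns are pileup as a signal in tags, −log10 p and −log10 q values, peak length in bp (other) and a fold ratio over the control's local level. A header line announces no q calculation, but the q column is filled and was used. Folds of the 2 reChIP lists have different controls and were not compared.

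From these the control level was computed as (pileup + 1) / fold − 1, and air tags by rescaling it with the tag totals. Summits were placed on the 27444 protein-coding genes of the RefSeq table of TAIR10.1, and peaks sharing 1 bp overlapped. Python 3.11.15, pandas 2.3.3, numpy 2.4.6 and scipy 1.17.1 were used, and functions were checked on simulated peaks. Genes were named by a rule: the 12 highest members of each list, members in both lists, targets among 8 gene lists, members with the highest and lowest air level, and EIN2, EIN3, EBF1, ENAP1, ETR2, ERF1, HY5 and HUB2. Members and lists were chosen with earlier results of these data known. The ENAP1 overlap had been planned within treatments, but the air ENAP1 and air reChIP lists share an input, so the ethylene ENAP1 list served both. A planned motif search was not made, as sequences were not used here. No library was left out.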

Additional observations from a re-analysis of the deposited data

How the results depend on the processing

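With 1 library per group no library could be left out, and depth limits every comparison: a member in air can rest on 8 tags. No paired analysis was possible because each group had 1 library. Of the alternative values for the main results 45 moved and 32 did not, and for single gene lists 18 moved and 78 did not. With a limit of 6 tags there were 1984 ethylene and 2542 air members, 2584 and 2762 target genes, 31 and 17 list genes, overlaps between the lists of 3.88% and 2.91%, gene-edge shares of 26.4% and 15.8%, 15.2% of air members in gene-poor windows and a median air level of 2.00 tags. With 12 tags these were 124 and 234 members, 169 and 144 target genes, 8 and 4 list genes, 21.0% and 9.83% overlap, 26.6% and 13.7% at gene edges, 9.68% and 74.4% in gene-poor windows and 4.00 tags. With the same limit in RPM (16.9 air tags) air had 193 members, 98 target genes, 4 list genes, 13.5% at gene edges and 87.0% in gene-poor windows, and 2.13% of ethylene members overlapped one. A −log10 q of at least 5 in place of pileup gave 133 ethylene and 87 air members, and a q of 0.05 or lower in addition put 26.2% of air members in gene-poor windows. Requiring 50% of both peaks gave overlaps of 3.13% (ethylene) and 3.31% (air), summits at most 100 bp apart 4.98% of ethylene members, and any air peak 12.5%. Targets numbered 610 (ethylene) and 417 (air) when summits had to be inside the gene and 652 (ethylene) with the nearest gene alone. The median air level was 4.47 tags from pileup divided by fold, by construction, since 1 is then not added. Without high control levels 10.0% of air members were in gene-poor windows. For the ENAP1 overlap, 3 alternatives were chosen after seeing the data: the air share was 2.59% at 16.9 air tags and 39.1% without high control levels, and the air ENAP1 list left both shares within their intervals.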

Other observations

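Below the high-signal peaks, the tallest ethylene members of low air level lay on ENAP1 sites in genes of varied function; they were picked after their values were seen. AT1G03440, next to the brassinosteroid phosphatase gene BSU1, had 20 ethylene tags over 3 air tags. AT5G13760, next to the transporter gene ZIFL1, had 18 tags over 3 air tags on a 9.22-fold ENAP1 peak. AT2G32150 had 17 tags over 1.61 air tags and the highest authors' fold of all ethylene members, 10.2. A peak of 15 tags lay between EIF3E, a translation initiation subunit gene, and INO80, a chromatin remodeller gene, over 2.77 air tags and on an 11.5-fold ENAP1 peak.

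Several genes held more than 1 separate ethylene member inside the gene. Besides SRT2 (3 members) and EIN2, PG2 had 3 members of 8 to 11 tags. ATL2, a RING-type ubiquitin ligase gene, had members of 16 and 8 tags, LRX3, a cell wall extensin gene, 16 and 10, PAL2, of phenylpropanoid synthesis, 15 and 8, CYP86A2, of cutin synthesis, 13 and 11, GTE7, a bromodomain gene, 12 and 8, and AOS, of jasmonate synthesis, 10 and 8. In air, besides EIN2, EIN3 and SRT2, the phosphatase 2A subunit gene B ALPHA had 3 members of 10 to 16 tags without a high input level.

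The 140 ethylene members without an ENAP1 ChIP peak of either treatment had a median pileup of 8 tags, and 96 of them lay inside a gene and farther than 200 bp from its edge. A member summit had 2 protein-coding genes in reach in 301 of 703 cases in ethylene and 193 of 664 in air, so a target gene is often 1 of a pair.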
